A study of Mus musculus with 4 samples.

Results

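The 54 genes described here code for core splicing factors and for heterogeneous nuclear ribonucleoproteins (hnRNPs). The set was chosen with earlier results of these data known, and membership in it follows from the symbol. Only single symbols in the probe annotation were used. All genes starting with Hnrnp, Srsf and a digit, Snrp or Snrnp, Sf3a or Sf3b, or Prpf and a digit were taken. They are 54 of the 11138 genes measured and rest on 57 oligonucleotides, each spotted in duplicate, or 114 spots. By subfamily there were 13 hnRNP genes, 8 SR protein genes, 18 genes of Sm and other small nuclear ribonucleoprotein (snRNP) proteins, 5 SF3A and SF3B genes and 10 PRPF genes. One of the 18, Snrp1c-ps2, is a pseudogene by its symbol. Only 4 further spots matched the rule in an annotation with several symbols (Hnrnph2 and Sf3a2); they were not counted.

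RNA came from SVEC cells, an established line of mouse endothelial cells, cultured with lipopolysaccharide (LPS), the outer membrane glycolipid of Gram-negative bacteria, for 24 h or for 4 h, and from control cells. Labels of 3 arrays give an LPS dose of 50 ng/ml, and how the controls were kept is not stated beyond the word control. Each time had 2 arrays on which amplified RNA from treated and from control cells competed in 2 dyes: LPS in Cy5 on one, and in Cy3 on the other, the dye reversal. Because the labels name no separate cultures, a time was counted as 1 RNA pair hybridised on 2 arrays, which the labels do not state. An SD here was thus read as the technical spread of 2 arrays, and neither time has a test of its own. Every value is a log2 ratio of LPS over control relative to the median spot of the array. No intensities were in the table, so expression levels, faint spots and the presence of cell type markers could not be assessed. The direction is likely rather than stated: it rests on the dyes in the labels, and under the reverse convention all signs would flip.

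Splicing removes introns from precursor RNA in the spliceosome, which assembles from snRNPs. Each of the U1, U2, U4 and U5 snRNPs carries a ring of Sm proteins on its RNA, plus proteins of its own that recognise the 5′ splice site (U1), the branch point (U2, with SF3A and SF3B) or form the catalytic core (the U4/U6.U5 tri-snRNP, with most PRPF proteins). SR proteins bind exons and mostly favour the use of nearby splice sites, while hnRNPs coat precursor RNA and often act against them; both classes also take part in RNA export, stability and translation. These genes are expressed in most cell types, and no role particular to endothelium is assumed here.

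RefSeq promoter windows of GRCm38.p6, 300 bases around a gene's start and mostly before it, were found for 49 of the 54 genes, in 64 windows. Those of the 4 genes with the largest ratios after 4 h (Srsf9, Snrpe, Snrpf and Srsf2) and of Hnrnpl, which lay on the low side at that time, are shown because the results below turn on these genes. They run 5′ to 3′ along the gene's strand, and capitals mark matches on either strand to CCAAT, to the ETS core CCGGAA or to the YY1 core ATGGCG.
Srsf9 promoter (chr5:115326927-115327226, plus strand): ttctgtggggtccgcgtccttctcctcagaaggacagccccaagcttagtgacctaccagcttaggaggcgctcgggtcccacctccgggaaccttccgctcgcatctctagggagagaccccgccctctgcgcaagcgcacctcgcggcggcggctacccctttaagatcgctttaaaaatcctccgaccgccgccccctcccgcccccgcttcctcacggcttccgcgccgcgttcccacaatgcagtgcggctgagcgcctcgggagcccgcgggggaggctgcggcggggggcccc
Snrpe promoter (chr1:133610231-133610530, minus strand): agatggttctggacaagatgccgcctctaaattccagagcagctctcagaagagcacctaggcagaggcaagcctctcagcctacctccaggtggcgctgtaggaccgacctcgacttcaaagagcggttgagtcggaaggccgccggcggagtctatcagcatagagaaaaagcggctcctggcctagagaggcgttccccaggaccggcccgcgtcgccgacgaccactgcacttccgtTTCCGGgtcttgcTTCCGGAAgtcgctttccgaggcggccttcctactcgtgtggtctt
Snrpf promoter (chr10:93589609-93589908, minus strand): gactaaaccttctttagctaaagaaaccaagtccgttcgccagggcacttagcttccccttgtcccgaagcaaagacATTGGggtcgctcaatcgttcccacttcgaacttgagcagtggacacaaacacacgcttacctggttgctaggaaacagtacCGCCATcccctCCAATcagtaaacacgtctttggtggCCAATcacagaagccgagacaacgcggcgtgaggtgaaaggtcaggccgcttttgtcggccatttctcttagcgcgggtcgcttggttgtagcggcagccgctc
Srsf2 promoter (chr11:116853045-116853344, minus strand): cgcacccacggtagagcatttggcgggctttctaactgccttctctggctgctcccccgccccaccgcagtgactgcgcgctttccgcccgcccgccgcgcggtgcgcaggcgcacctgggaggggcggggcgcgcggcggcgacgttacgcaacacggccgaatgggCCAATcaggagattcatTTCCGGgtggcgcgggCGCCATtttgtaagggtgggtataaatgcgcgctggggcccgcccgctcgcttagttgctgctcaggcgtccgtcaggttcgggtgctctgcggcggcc
Hnrnpl promoter (chr7:28810640-28810939, plus strand): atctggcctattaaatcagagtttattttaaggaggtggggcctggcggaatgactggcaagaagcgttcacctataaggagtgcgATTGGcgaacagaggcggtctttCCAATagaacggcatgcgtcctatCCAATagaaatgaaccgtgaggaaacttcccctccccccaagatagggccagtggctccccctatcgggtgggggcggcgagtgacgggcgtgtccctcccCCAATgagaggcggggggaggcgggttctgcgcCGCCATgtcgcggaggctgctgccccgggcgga
Srsf2 holds all 3 of the marked motifs, Srsf9 none of them. Snrpe has 3 ETS core matches close to its start, of which 2 overlap; Snrpf has 3 CCAAT matches and Hnrnpl 4, each with 1 YY1 core match. Over all members, CCAAT occurred in 45.3% of windows, against 37.4% of 32851 windows of all genes, the ETS core in 42.2% against 14.9%, the YY1 core in 25.0% against 8.93% and the GC box GGGCGG in 60.9% against 35.7%. The NRF1 core GCATGCG was found in 12.5% against 3.58%, among members only in windows of Snrpn, Hnrnph1, Hnrnpl and Snrnp70. The CRE core TGACGTC was found in 6.25% against 3.21% and TATAAA in 12.5% against 13.6%. The NF-kB pattern (GGG, any 2 bases, TTTCC) was found in 3.13% against 1.63%. The interferon response pattern (GAAA, any 2 bases, GAAA) was found in 1.56% against 3.44%. Of the 22 windows of genes counted as higher at 4 h, 12 held CCAAT, 7 the ETS core, 8 the YY1 core, and 0 either of the last 2 patterns. The windows of members were richer in CpG, with a median of 24 CpG per window against 7 over all RefSeq windows. These matches describe letters and were not tested.

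Genes were called higher or lower by a 2-fold rule: the mean of both arrays had to reach 2-fold, and each array 1.5-fold in the same direction. At 24 h, 1 of 54 members was higher and 0 were lower. Over all genes 1.68% were higher and 0.799% lower, so by this rule the members' count at 24 h lay at the background. At 4 h, 16 members (29.6%) were higher and 4 (7.41%) lower, where 8.74% and 5.77% of all genes were. The share of higher genes was thus above the background and that of lower genes close to it, in a set chosen with earlier results of these data known. The 16 were Srsf9, Snrpe, Snrpf, Srsf2, Snrpc, Hnrnpa0, Hnrnph1, Hnrnpa2b1, Srsf3, Hnrnpm, Snrpa, Hnrnpa1, Snrpd2, Snrpg, Prpf8 and Srsf5, and the 4 were Snrnp48, Snrnp27, Hnrnpl and Hnrnpll. No member was past the rule at both times, and 33 were past it at neither. A looser rule, a 1.5-fold mean with both arrays the same way, took in 10 higher and 1 lower at 24 h, where 8.75% and 6.6% of all genes passed, and 21 higher and 4 lower at 4 h, where 16.6% and 12.8% did. At 24 h it thus took in a larger share of members than of all genes as higher, and a smaller share as lower. A 2-fold mean alone gave 2 higher and 0 lower at 24 h (3.48% and 2.51% of all genes) and 19 higher and 4 lower at 4 h (11.7% and 8.09%).

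The median of the members was 0.27 at 24 h, against 0.02 over all genes, and 0.27 at 4 h, against 0.00. The medians at the times were close although the spread was not: means ran between -0.98 and 1.38 at 24 h and between -3.82 and 3.19 at 4 h. Members above 0 on both arrays made up 48.1% at 24 h and 51.9% at 4 h, against 30.3% and 31.2% of all genes; 9 and 10 members lay below 0 on both, where 25.6% and 31.6% of all genes did. Across the 54 members, the arrays of the pair correlated at r = -0.35 at 24 h and at r = 0.78 at 4 h. The negative value rests on Snrnp27: without it, r was 0.21 at 24 h over 53 members, and at 4 h no single member moved r beyond 0.73 to 0.82. Over all genes the same correlations were 0.10 and 0.48; genes are not independent replicates.

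**Figure D1:**
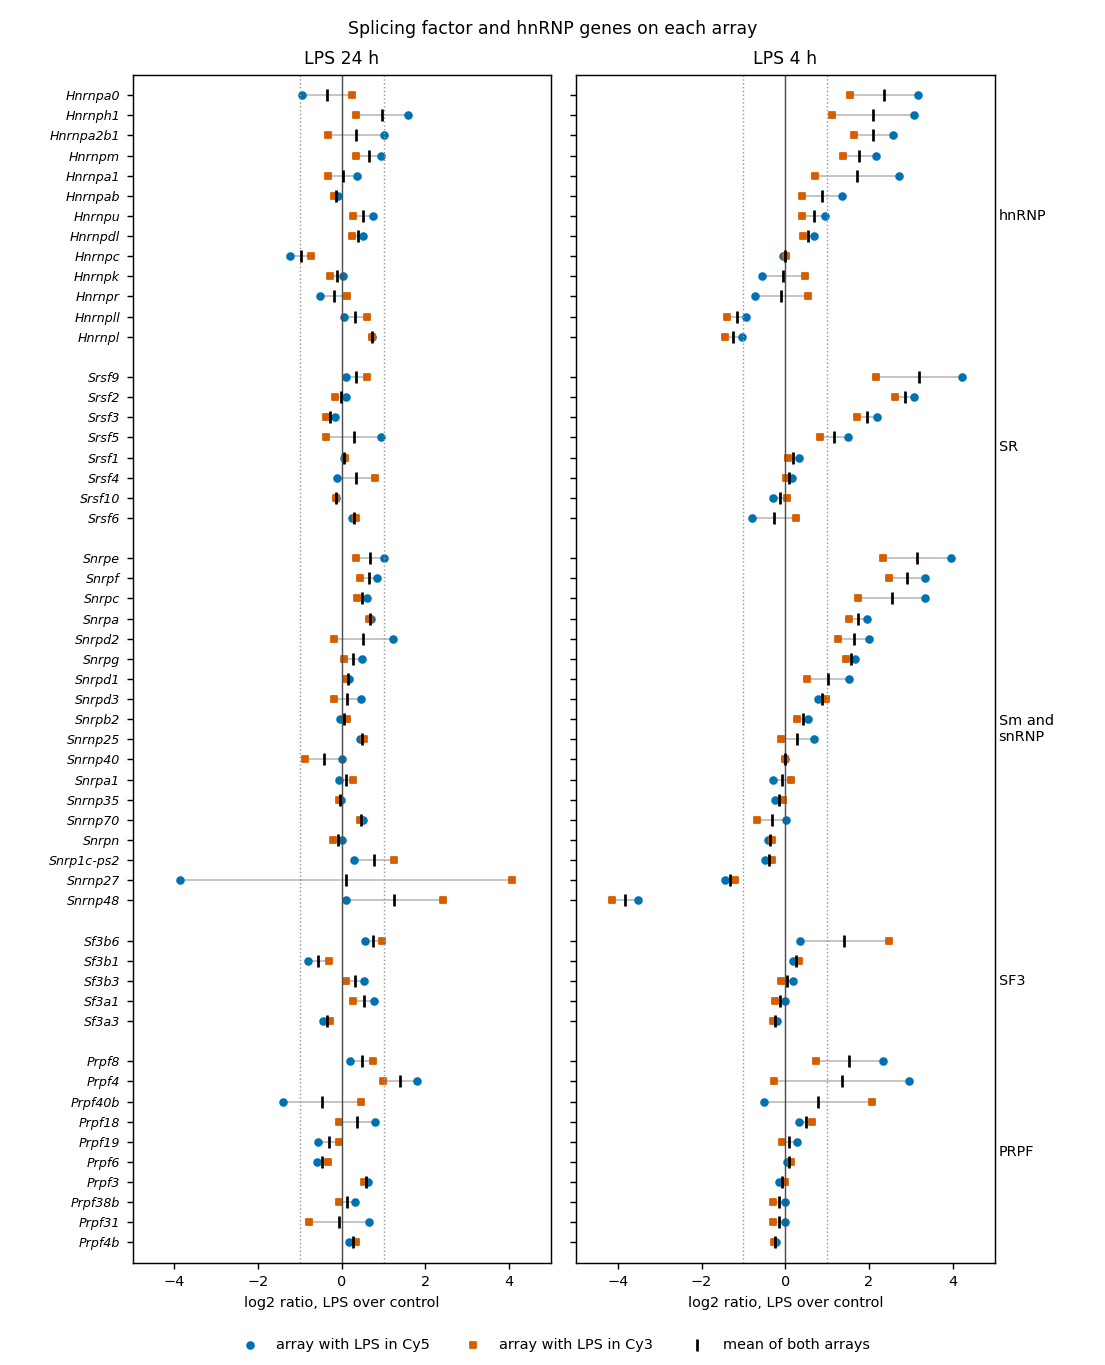
Log2 ratio of LPS over control (horizontal axis) for each of the 54 genes, at 24 h (left) and at 4 h (right), by subfamily and ordered by the 4 h mean. Circles are the array with LPS in Cy5, squares the array with LPS in Cy3, ticks the mean of both, and dotted lines lie at 2-fold; at 4 h, 16 genes counted as higher lie on the right and 4 counted as lower on the left, values are relative to the median spot, and at 24 h most means lie between the dotted lines.

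Transcripts known to be abundant moved with this result. For a list of such transcripts outside translation the median was 0.05 at 24 h and 1.90 at 4 h, with 0 and 17 of its 29 measured genes higher. Of 61 ribosomal protein genes, 2 were higher at 24 h and 37 at 4 h, with medians of 0.28 and 2.24. By the same rule 1.68% of all genes were higher at 24 h and 8.74% at 4 h, and 5.77% were lower at 4 h. Transcripts of unrelated tissues had medians of 0.06 and -0.20. Among cell type markers, 1 of 11 mural and fibroblast genes was higher at 24 h (median -0.03) and 6 at 4 h (median 1.20), and 1 of 8 leukocyte genes was higher at 24 h (median 0.39) and 0 at 4 h (median -0.09). Of 11 endothelial markers 0 were higher at either time (medians -0.06 and -0.01), and of 7 epithelial markers 0 were (medians -0.20 and -0.18); each of these lists and the mural list had 1 gene lower at 4 h. The part of transcript abundance and of cell makeup in the members' ratios was not tested. Centring each array on the abundant transcripts shifted the median of all genes at 4 h to -1.80 and that of the members to -1.53. At 4 h 4 members were then higher and 32 lower, where 124 and 8871 of all genes were. Of the 33 members with a 4 h mean above 0, 24 then lay below 0, where 5020 of 5528 such genes overall did. They include 7 of the 16 counted as higher, Hnrnpa1, Hnrnpm, Prpf8, Snrpa, Snrpd2, Snrpg and Srsf5, and, the 3 others with a 2-fold mean, Sf3b6, Prpf4 and Snrpd1, so the 4 h values below hold relative to the median spot.

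**Figure D2:**
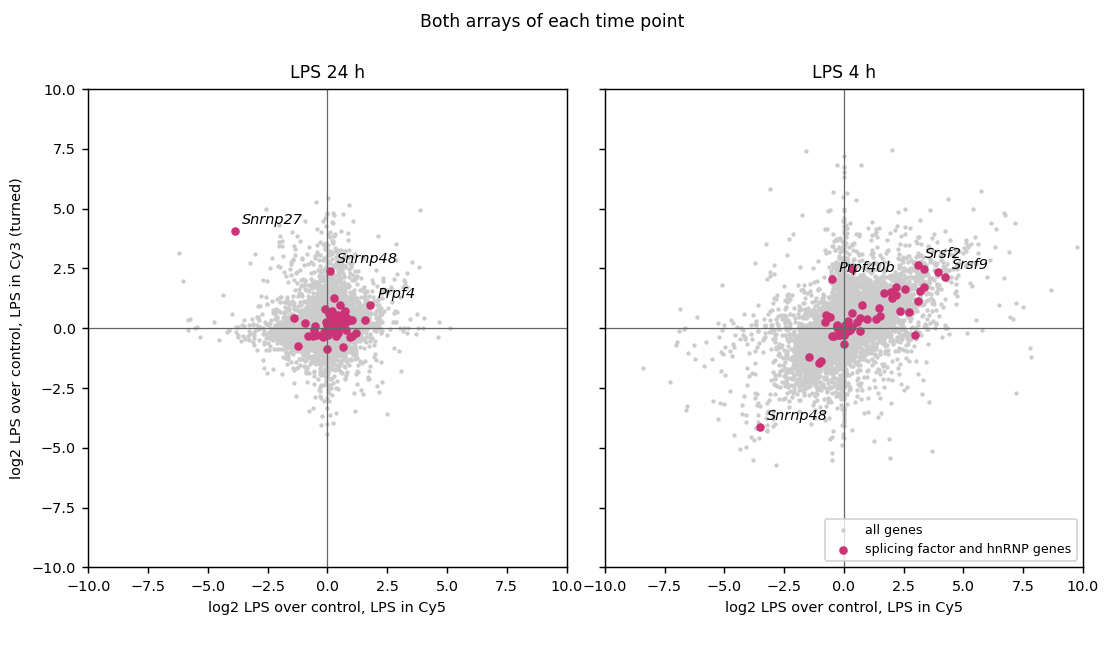
Log2 ratio of LPS over control on the array with LPS in Cy5 (horizontal axis) against the turned ratio on the array with LPS in Cy3 (vertical axis), at 24 h (left) and 4 h (right). Grey points are all 11138 genes and coloured points the 54 members, which correlate at r = -0.35 at 24 h (0.21 without Snrnp27, the point at the upper left) and r = 0.78 at 4 h.

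Below, the value on the array with LPS in Cy5 stands before that on the array with LPS in Cy3. Counts by the 2-fold rule stand against 1.68% of all genes higher and 0.799% lower at 24 h, and 8.74% and 5.77% at 4 h.

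In the hnRNP subfamily, 0 of 13 genes were past the rule at 24 h, and 5 were higher and 2 lower at 4 h. Subfamily medians were 0.32 and 0.68. All 5 measured genes of the A/B and D-like proteins lay above 0 on both 4 h arrays, and 3 of them were higher. Hnrnpa0, which binds AU-rich elements in messenger RNA, lay at -0.95 and 0.24 on the 24 h arrays and at 3.18 and 1.54 on the 4 h arrays. Its means were -0.36 ± 0.84 and 2.36 ± 1.16 (SD, 2 arrays), the 4 h mean being 5.13-fold. Hnrnpa2b1, an RNA-binding protein that also acts in RNA transport, lay at 1.01 and -0.32 at 24 h and at 2.57 and 1.63 at 4 h (means 0.34 ± 0.94 and 2.10 ± 0.66). Hnrnpa1, one of the most abundant nuclear RNA-binding proteins and a classical antagonist of SR proteins in splice site choice, lay at 0.37 and -0.33 at 24 h and at 2.71 and 0.70 at 4 h (means 0.02 ± 0.49 and 1.71 ± 1.42). In all 3 the 24 h arrays fell on both sides of 0 and every 4 h array lay above both of them. Hnrnpab did not reach the rule at 4 h (1.36 and 0.40, mean 0.88 ± 0.68) and lay at -0.08 and -0.19 at 24 h, and Hnrnpdl lay at 0.38 and 0.55 at the times.

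The remaining hnRNP genes parted in direction at 4 h. Hnrnph1, which binds G-rich RNA, lay at 1.58 and 0.35 at 24 h, short of the rule (mean 0.97 ± 0.87), and at 3.08 and 1.13 at 4 h (2.10 ± 1.39, 4.30-fold). Hnrnpm, a splicing regulator, lay at 0.95 and 0.33 at 24 h and at 2.17 and 1.38 at 4 h (means 0.64 ± 0.43 and 1.77 ± 0.56). These were above 0 on all 4 arrays. Hnrnpl, which binds CA-rich RNA, lay at 0.72 and 0.72 at 24 h and at -1.04 and -1.45 at 4 h (0.72 ± 0.00 and -1.25 ± 0.29). Its paralogue Hnrnpll, known as a regulator of alternative splicing in lymphocytes, lay at 0.05 and 0.59 at 24 h and at -0.94 and -1.38 at 4 h (0.32 ± 0.39 and -1.16 ± 0.32). Both paralogues were thus above 0 on both 24 h arrays and below 0 on both 4 h arrays, and their duplicate spots differed by at most 0.37 and 0.34 on any array. For Hnrnpll the spots on the 24 h array with LPS in Cy5 read -0.04 and 0.14, on both sides of 0. The sequences of the oligonucleotides were not analysed here, so signal shared between related genes cannot be told apart from their own. Hnrnpc, which packages precursor RNA, had the lowest 24 h mean of all members (-1.23 and -0.73, mean -0.98 ± 0.36, just short of the rule) and lay at -0.02 at 4 h. Hnrnpk, Hnrnpr and Hnrnpu were not past the 2-fold rule at either time (Hnrnpu at 4 h passed the looser 1.5-fold one), at -0.12, -0.20 and 0.51 at 24 h and -0.05, -0.10 and 0.68 at 4 h.

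SR protein genes were divided at 4 h: 4 of 8 were higher and the other 4 lay near 0. At 24 h 0 of 8 were past the rule; the medians were 0.17 at 24 h and 0.68 at 4 h. Srsf9, an SR protein with a short RS domain, had the largest 4 h mean of all members, with 0.11 and 0.59 at 24 h and 4.22 and 2.16 at 4 h (0.35 ± 0.34 and 3.19 ± 1.45, the 4 h mean being 9.11-fold). Srsf2 (SC35), an exon-binding activator of splicing, lay at 0.11 and -0.16 at 24 h and at 3.09 and 2.63 at 4 h (-0.03 ± 0.19 and 2.86 ± 0.32). It was the best covered member, with 3 oligonucleotides, whose means were 0.22, 0.46 and -0.76 at 24 h, and 3.60, 3.06 and 1.92 at 4 h. They differed in sign at 24 h and all lay above 0 at 4 h. Srsf3, the smallest SR protein, which also acts in RNA export, lay at -0.17 and -0.39 at 24 h and at 2.18 and 1.72 at 4 h (-0.28 ± 0.15 and 1.95 ± 0.32). Srsf5 lay at 0.95 and -0.37 at 24 h and at 1.49 and 0.83 at 4 h (0.29 ± 0.93 and 1.16 ± 0.46).

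The SR protein genes past no rule included Srsf1, the founding member of the family. It lay at 0.04 and 0.08 at 24 h and at 0.32 and 0.06 at 4 h. Srsf4, Srsf10 and Srsf6 lay at 0.34, -0.13 and 0.29 at 24 h and at 0.09, -0.13 and -0.27 at 4 h. For Srsf6 the 4 h arrays differed in sign (-0.79 and 0.25), with 1 spot at -1.76 and its duplicate at 0.18 on the first of them.

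Of the 18 genes of Sm and other snRNP proteins, 0 were past the rule at 24 h. At 4 h 6 were higher and 2 lower, and 5 lay below 0 on both arrays. Subfamily medians were 0.36 at 24 h and 0.35 at 4 h. Among Sm ring genes, which encode the proteins shared by the spliceosomal snRNPs, 6 of 7 measured members lay above 0 on both 4 h arrays, all but Snrpn, and 4 were higher by the rule. None of the 7 was past it at 24 h, and the median was 0.26 at 24 h and 1.57 at 4 h. Snrpe lay at 1.01 and 0.34 at 24 h and at 3.95 and 2.33 at 4 h (0.68 ± 0.48 and 3.14 ± 1.14, with the 4 h mean 8.82-fold). Its ring neighbour Snrpf lay at 0.84 and 0.44 at 24 h and at 3.35 and 2.48 at 4 h (0.64 ± 0.28 and 2.92 ± 0.61). Snrpg, which with these forms a subcomplex during ring assembly, lay at 0.48 and 0.04 at 24 h and at 1.68 and 1.46 at 4 h (0.26 ± 0.31 and 1.57 ± 0.15). Every 4 h array of these lay above both 24 h arrays. Snrpd2 lay at 1.21 and -0.18 at 24 h and at 2.0 and 1.26 at 4 h (0.51 ± 0.99 and 1.63 ± 0.52). Its partner Snrpd1 had a 4 h mean just above 2-fold and missed the demand on each array, with 0.18 and 0.10 at 24 h and 1.53 and 0.53 at 4 h. Snrpd3 lay at 0.13 at 24 h and 0.88 at 4 h. Snrpn, an imprinted gene for a protein nearly identical to Snrpb, which was not analysed here, lay at -0.10 at 24 h and -0.37 at 4 h.

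The proteins of the U1 snRNP were split by member. Snrpa, which binds a stem loop of U1 RNA, lay at 0.70 and 0.65 at 24 h and at 1.96 and 1.53 at 4 h (0.67 ± 0.03 and 1.74 ± 0.31). Snrpc, which helps U1 to hold the 5′ splice site, lay at 0.59 and 0.37 at 24 h and at 3.35 and 1.74 at 4 h (0.48 ± 0.16 and 2.54 ± 1.14, 5.83-fold at 4 h). The pseudogene Snrp1c-ps2 lay opposite to Snrpc at 4 h, at -0.48 and -0.31, and at 0.29 and 1.26 at 24 h. Snrnp70, the largest U1 protein, had 2 oligonucleotides that differed: their means were 0.00 and 0.94 at 24 h and 0.47 and -1.11 at 4 h. The 4 h value of the one below 0 rests on a single spot at -4.49, whose duplicate read 0.06. The U2 genes Snrpa1 and Snrpb2 stayed between -0.30 and 0.55 on every array.

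Genes for proteins of the minor spliceosome, which removes a rare class of introns, gave the lowest ratio of all members. Snrnp48, a protein of the U11/U12 snRNP, lay at -3.52 and -4.13 at 4 h (-3.82 ± 0.44), or 0.0706 of control, and its 4 spots at that time ran between -4.23 and -3.50. At 24 h its arrays read 0.09 and 2.41 (1.25 ± 1.64), and that mean rests on 1 spot at 4.82, since 2 of the other 3 spots were at a ratio of exactly 1 and the third at 0.19. Snrnp25 and Snrnp35, of the same snRNP, were past no rule, at 0.48 and -0.05 at 24 h and 0.29 and -0.15 at 4 h. Among proteins of the tri-snRNP, Snrnp27 counted as lower at 4 h (-1.45 and -1.19), but its spots on the array with LPS in Cy3 read -4.52 and 2.14, and at 24 h its arrays stood at -3.86 and 4.06. Its arrays thus disagreed in sign at 24 h and its spots at 4 h. Snrnp40 had 7 of its 8 spot values at a ratio of exactly 1.

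**Figure D3:**
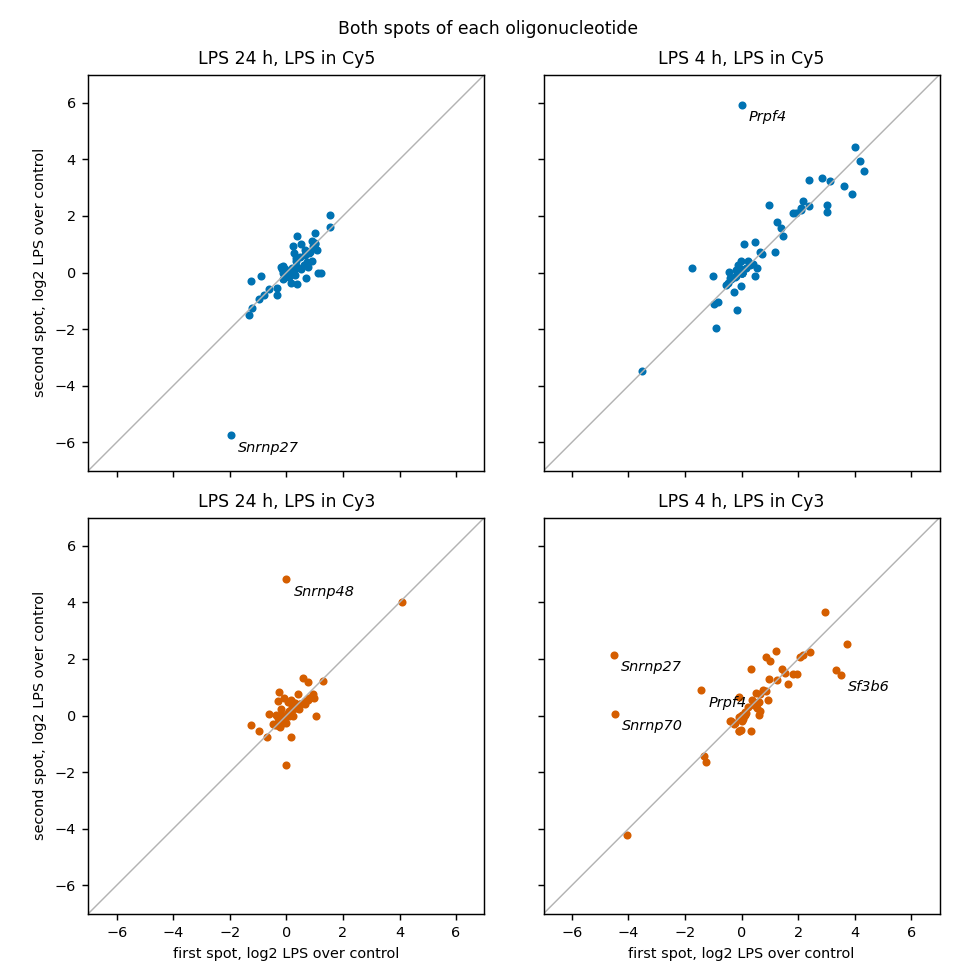
The first against the second spot of each of the 57 oligonucleotides (log2 ratio of LPS over control on both axes) on the 24 h arrays (left) and the 4 h arrays (right), with LPS in Cy5 above and in Cy3 below. Genes whose spots differ by more than 2 are named: Snrnp27, Snrnp48, Snrnp70, Prpf4 and Sf3b6. The spots correlate at r = 0.60 to 0.83 per array, and Srsf6, Snrnp40, Snrpf, Snrpg and Snrpd3 reach gaps of 1.94, 1.74, 1.72, 1.43 and 1.30.

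Of the SF3A and SF3B genes, whose proteins hold the U2 snRNP on the branch point, 0 of 5 were past the rule at 24 h and 0 at 4 h. Sf3b6, which touches the branch point, came nearest, with 0.54 and 0.96 at 24 h and 0.35 and 2.47 at 4 h (0.75 ± 0.30 and 1.41 ± 1.5). Its 4 h mean was 2.65-fold and carried by the array with LPS in Cy3. Sf3b1, the large scaffold of SF3B, lay at -0.80 and -0.32 at 24 h and at 0.18 and 0.32 at 4 h (-0.56 ± 0.34 and 0.25 ± 0.10). Sf3a3 lay at -0.36 and -0.25, Sf3a1 at 0.52 and -0.12 and Sf3b3 at 0.32 and 0.05 at 24 h and 4 h.

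Of 10 PRPF genes, 1 was higher at 24 h and another at 4 h. That is 10% at each time, where 1.68% and 8.74% of all genes were higher. Prpf4, a U4/U6 protein, was the only member past the rule at 24 h, at 1.79 and 0.98 (1.38 ± 0.58, 2.61-fold), with its 4 spots between 0.76 and 2.05. At 4 h its mean was about the same, 1.34 ± 2.29, but the arrays read 2.96 and -0.27, and the first of them rests on spots at 5.92 and at exactly 0. Prpf8, the scaffold at the catalytic core of the spliceosome, lay at 0.21 and 0.74 at 24 h and at 2.34 and 0.73 at 4 h (0.47 ± 0.38 and 1.53 ± 1.14). Prpf40b, which is related to a yeast U1 protein, changed sign with the dye at both times (-1.41 and 0.45 at 24 h, -0.50 and 2.06 at 4 h), while its duplicate spots lay within 0.16 of each other. The kinase gene Prpf4b lay at 0.18 and 0.34 at 24 h and at -0.21 and -0.26 at 4 h. Prpf3, Prpf6, Prpf18, Prpf19, Prpf31 and Prpf38b had means between -0.47 and 0.57 at 24 h and between -0.14 and 0.49 at 4 h.

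**Figure D4:**
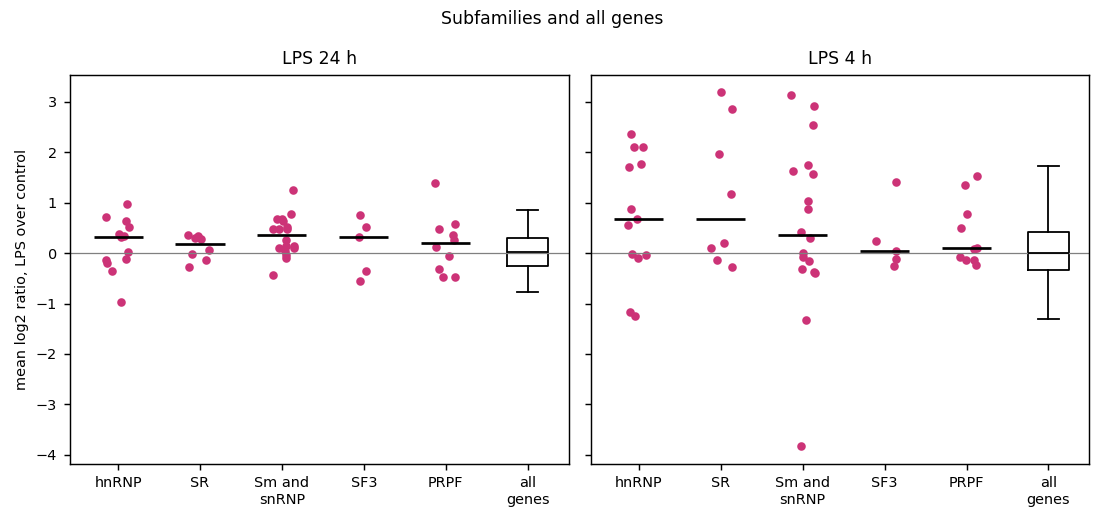
Mean log2 ratio of LPS over control (vertical axis) at 24 h (left) and 4 h (right) for the members of each subfamily (points, with the median as a bar) and for all 11138 genes (box at the quartiles, whiskers at the 5th and 95th percentiles). Relative to the median spot, the 4 h medians lie at 0.68 for hnRNP and SR genes and at 0.35 for Sm and snRNP genes. The SF3 and PRPF medians at 4 h lie at 0.05 and 0.09. Centring on abundant transcripts would shift every 4 h mean by -1.80.

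Between the times, a gene counted as different when the means lay at least 1 apart and both arrays of one time lay beyond both of the other. At 24 h relative to 4 h, 4 of 54 members were higher and 14 lower, where 8.2% and 9.98% of all genes were; the members' shares were 7.41% and 25.9%. The higher ones were Snrnp48 (difference 5.08), Hnrnpl (1.97), Hnrnpll (1.48) and Snrp1c-ps2 (1.17). The lower ones were Srsf2 (-2.89), Srsf9 (-2.84), Hnrnpa0 (-2.72), Snrpe (-2.46), Snrpf (-2.28), Srsf3 (-2.23), Snrpc (-2.06), Hnrnpa2b1 (-1.76), Hnrnpa1 (-1.68), Snrpg (-1.31), Hnrnpm (-1.13), Snrpd2 (-1.12), Snrpa (-1.07) and Hnrnpab (-1.02). Of the 16 members higher at 4 h, all but Hnrnph1, Prpf8 and Srsf5 are in this second group; their 4 h values enter both rules. Whether the times share control RNA is not known.

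A response common to both times was fitted with limma over all genes on the pair means, with 1 residual degree of freedom. No member passed a Benjamini-Hochberg adjusted p of 0.05 and neither did any other gene (0% of 11138); the smallest adjusted p of a member was 0.761. At an unadjusted p under 0.05 there were 5 members (9.26%), Prpf4, Hnrnph1, Sf3b6, Snrpa and Hnrnpm, all higher, against 4.61% of all genes. Taking the 4 arrays as independent also gave 0 members after adjustment, with 14 (25.9%) at an unadjusted p under 0.05, against 11.2% of all genes, or 9 (16.7%) with a dye term, against 9.64%.

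Other genes of the splicing machinery, from a list of 107 of which 79 were measured, gave 1 higher and 0 lower at 24 h and 12 higher and 3 lower at 4 h. These are 1.27% and 15.2% for the higher ones, against 1.68% and 8.74% of all genes, with medians of 0.09 and 0.25. The lower ones at 4 h are 3.80%, against 5.77% of all genes. U2af1, which binds the 3′ splice site, was past the rule at both times (1.24 ± 0.84 and 1.13 ± 0.24). At 4 h the highest were the peptidyl-prolyl isomerase gene Ppie (2.82 ± 0.79), the SR-like Tra2b (2.71 ± 0.80), the helicase gene Dhx16 (2.16 ± 0.72) and Mbnl1, a regulator of alternative exons (1.63 ± 0.16). These lay at -0.05, 0.53, 0.10 and 0.02 at 24 h. The lowest at 4 h were Plrg1, of the Prpf19 complex (-3.45 ± 0.79), the U5 GTPase gene Eftud2 (-1.59 ± 0.00) and Lsm1, which acts in messenger RNA decay (-1.39 ± 0.25), with -0.36, 0.11 and 0.12 at 24 h.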

How the data were processed

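Ratios of LPS-treated over control RNA of SVEC cells were measured on 4 two-dye arrays, 2 at 24 h and 2 at 4 h. The authors deposited log2 ratios of the dyes for 32448 spots per array, with column medians of 0.00; the scale was settled from the values, and the scanner, background correction and normalization are not stated in these sources. Spots were named from the platform annotation; 24344 had 1 symbol, and all 54 members matched RefSeq by identifier. Deposited ratios within 1e-06 of 0 were set to 0 (a ratio of exactly 1); they made up 10 of 228 member spot values at 24 h and 13 at 4 h. Each array was centred on its median spot, the dye reversals were turned in sign, spots of a gene were averaged, and arrays of a time were averaged. The arrays of a time count as 1 replicate, so only the response shared by the times was tested, with limma 3.58.1 in R 4.3.3 (lmFit, eBayes), checked on simulated data. Precision is limited by the number of arrays. Motifs were searched on both strands with Python 3.11.15.

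The members and gene lists were chosen with earlier results of these data known. Named genes are members past a rule, those with the highest and lowest mean of a subfamily, those whose oligonucleotides differ in sign, and up to 4 listed genes each way past the 2-fold rule; the remaining members with values were named after these were seen. Alternatives were other centring, scaling, treatment of exact zeros, gene summaries, fold rules and leaving out each array.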

Additional observations from a re-analysis of the deposited data

Results flagged for a closer look

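In 10 of the 54 members (18.5%), both arrays of one time lay above 0 and both of the other below 0, where 13.8% of all genes show the same pattern. The difference between the times was not tested in any of them. Prpf3 and Prpf6 are the 2 that the naming rule does not cover, with means of 0.57 and -0.47 at 24 h and of -0.08 and 0.09 at 4 h. The 24 h values of Prpf3 rest on 1 spot, at 1.24 and 1.05, whose duplicate read exactly 0 on both arrays. Its 4 h value with LPS in Cy3 was -0.007. For the other 8, given as the 24 h mean minus the 4 h mean, the differences were 5.08 for Snrnp48, 1.97 for Hnrnpl, 1.48 for Hnrnpll, 1.17 for Snrp1c-ps2 and 0.50 for Prpf4b, all higher at 24 h, and -2.23 for Srsf3, -1.02 for Hnrnpab and -0.81 for Sf3b1, lower at 24 h. The values of Snrnp48 at 24 h rest on 1 of 4 spots, while both spots of Hnrnpl and Srsf3 lay on the same side of 0 on every array.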

How the results depend on the processing

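Limits: each time was taken as 1 RNA pair, faint spots could not be removed, and 23 of 456 member spot values stand at a ratio of exactly 1. Each ratio already pairs LPS with control on its array. No further pairing could be used, because the labels give no replicate numbers. They do not state whether the arrays of a time share RNA. Centring each array on the abundant transcripts subtracts a constant per array. It moved the median of all genes to -0.07 at 24 h and -1.80 at 4 h. The members' medians were then 0.18 at 24 h and -1.53 at 4 h. At 24 h 1 member was lower, where 151 of all genes were. At 4 h 4 members were higher and 32 lower, where 124 and 8871 of all genes were. Between the times, 30 members were higher and 3 lower at 24 h than at 4 h. Over all genes 8567 were higher and 121 lower. Of the genes past the 2-fold rule at 4 h, Hnrnpa1 (-0.093), Hnrnpm (-0.027), Prpf8 (-0.27), Snrpa (-0.056), Snrpd2 (-0.17), Snrpg (-0.23), Srsf5 (-0.64), Mbnl1 (-0.17) and U2af1 (-0.67) then turned in sign at 4 h, whereas Srsf9, Snrpe, Snrpf, Srsf2, Snrpc, Hnrnpa0, Hnrnph1, Hnrnpa2b1 and Srsf3 stayed above 0; of members not past it, 17 more turned below 0, among them Sf3b6 (-0.39), Prpf4 (-0.46), Hnrnpab (-0.92), Prpf40b (-1.02) and Sf3b1 (-1.55). Quantile normalization gave 2 members higher and 1 lower at 24 h, where 409 and 148 of all genes were. The medians were 0.37 at 24 h and 0.22 at 4 h. With it, 9 members were lower at 24 h than at 4 h, where 878 of all genes were. Scaling all arrays to the same spread gave 1 member lower at 24 h (142 of all genes) and a 4 h median of 0.25. With exact zeros as not measured, 2 members were higher at 24 h (183 of all genes). Genes with all spots of an array at a ratio of exactly 1 then drop out at both times. Among the members these were Snrnp40, Prpf31, Prpf38b and Sf3a1. Over the members that remained, the medians were 0.30 at 24 h and 0.44 at 4 h. Keeping the oligonucleotide whose mean over the 4 arrays was largest in absolute value gave a 4 h median of 0.35. Asking for a 1.5-fold mean with both arrays the same way gave 10 higher and 1 lower at 24 h, where 8.75% and 6.6% of all genes were, and a 2-fold mean alone gave 2 higher, where 3.48% were. Leaving out 1 array at a time gave 1 to 5 members higher and 0 to 3 lower at 24 h. Over all genes these counts were 187 to 771 and 89 to 818. At 4 h it gave 15 to 19 members higher and 3 to 4 lower, where 973 to 1477 and 643 to 1007 of all genes were. Medians were 0.18 to 0.27 at 24 h and 0.27 to 0.30 at 4 h. Between the times, 3 to 6 members were higher and 11 to 19 lower at 24 h than at 4 h. Over all genes 923 to 1574 and 1405 to 1581 were. Without the 24 h array with LPS in Cy5, 3 members and 771 of all 11138 genes were higher at 24 h. Without the reversed one, 5 members and 503 genes were higher, and 3 members and 818 genes lower. The causes of these changes were not tested. The shared fit called 0 members under every alternative tried.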

Other observations

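Spots annotated with several symbols were left out of all counts. The pair whose annotation holds Hnrnph2 beside Rpl36a, Btk and Gla had means of 0.50 and 0.66 at 24 h and of 0.73 and 0.50 at 4 h. The pair whose annotation holds Sf3a2 beside Plekhj1 and Amh had means of -0.14 and -0.08 at 24 h and of 0.78 and 0.75 at 4 h, where its arrays differed in sign (-0.21 and 1.77 for the first spot).

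The dye orientations were uneven among genes higher at 4 h. In all 16 members higher at 4 h the value was larger on the array with LPS in Cy5, as in 688 (70.7%) of the 973 such genes. By a 2-fold mean alone it was larger there in 18 of 19 members, the exception being Sf3b6, and in 63.8% of 1300 genes. Over all 54 members that array gave the larger value in 32 at 24 h and in 36 at 4 h, and over all genes in 4972 and 5770 of 11138.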
